A study of Mus musculus with 20 samples.

Results

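The imprinted growth genes H19, Igf2, Meg3, Dlk1, Mest, Peg3, Plagl1, Cdkn1c, Grb10 and Ndn were followed across inguinal white adipose tissue (iWAT) and brown adipose tissue (BAT) of male mice. The members were chosen by symbol, and all 10 were present among the 25219 genes of the table. Each tissue was represented by 5 Control and 5 Ai-α4KO libraries of polyadenylated RNA, 20 in all. Ai-α4KO mice (KO below) carry floxed alleles of α4 (Igbp1) and a tamoxifen-inducible Cre driven by the Adiponectin promoter. The Control animals, labelled WT, carry the floxed alleles without the Cre according to the methods of the study, and all groups received tamoxifen at 100 mg/kg in 5 injections over 6 days, starting at 2 months of age. Tissue was taken 1 week after recombination. The Cre acts in adipocytes, so that the other cells of the depot keep Igbp1. Nothing in the labels tells whether 1 animal gave both tissues, nor whether libraries came from pooled animals, and the p-values below measure the spread between these libraries.

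An imprinted gene is transcribed mainly from the chromosome inherited from 1 parent, and many such genes set fetal and early postnatal growth. As background, the growth factor Igf2 and the noncoding RNA H19 are transcribed from opposite parental chromosomes under shared enhancers, and the same reciprocal arrangement holds for Dlk1, which encodes the membrane protein Pref-1 that restrains adipocyte differentiation, and the noncoding RNA Meg3. Several members are known from fat: Mest from the expansion of adipocytes, Grb10 from the restraint of insulin and IGF receptors, Ndn from the restraint of preadipocyte proliferation. The libraries do not separate the parental alleles, so that every value is the sum of both.

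Library totals ran from 24023371 to 50384446 counts. Igbp1 itself had 71.5 ± 7.43 CPM (counts scaled to a common library total; SD, n = 5) in Control iWAT and 11.4 ± 0.397 CPM in KO iWAT, and 89.6 ± 5.79 against 15.8 ± 4.44 CPM in BAT, with no overlap of the groups in either tissue. The marker lists moved with genotype. Of 10 adipocyte markers, 8 fell in iWAT and 7 in BAT, while all 5 macrophage markers and all 5 proliferation markers rose in both, and 5 of 10 stromal markers rose in BAT and 1 of 10 in iWAT. Of all genes tested, 11.3% rose and 10.7% fell in iWAT, and 18.2% rose and 13.3% fell in BAT, by the rule given below. In bulk tissue, fewer cells of a type and less RNA per cell cannot be told apart. Summed skeletal muscle markers reached 8182 CPM in Control iWAT 4 and 5810 CPM in KO iWAT 1 but 5.97 to 204 CPM in the other 8 iWAT libraries. B cell markers summed to 462 and 180 CPM in Control iWAT 1 and 4 and to between 6.10 and 14.1 CPM in the other iWAT libraries, and epithelial markers stood between 21.02 and 93.9 CPM in Control iWAT 1 and 4 and KO iWAT 1 and 2 against at most 1.34 CPM elsewhere. In BAT, muscle markers summed to between 933 and 9555 CPM in Control and between 12600 and 43299 CPM in KO, so that they did not overlap, and 7 of these 9 markers were called higher in KO. All 6 brown adipocyte markers were higher in BAT than in iWAT in both genotypes, where 7.22% of all genes were called higher in Control and 8.4% in KO.

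To compare the genes with one another, levels are given as the FPKM that the authors deposited, which divides by transcript length. Ndn led in Control iWAT with 25.99 ± 3.29 FPKM (SD, n = 5 in this and every following group). Grb10 followed at 21.3 ± 3.22, and the ranges of these neighbours touched, at 21.4 to 30.2 for Ndn and 16.5 to 25.2 for Grb10. Cdkn1c came next with 12.0 ± 3.98 FPKM, and Plagl1, Peg3, H19 and Mest lay together between 3.09 and 5.47, within their spread. Meg3 had 1.76, Igf2 0.836 and Dlk1 only 0.0452 FPKM. In Control BAT the order was Ndn (26.9 ± 2.35 FPKM), Cdkn1c (18.6 ± 4.27), H19 (15.1 ± 9.19) and Grb10 (8.11 ± 1.44), and Dlk1 was again the lowest with 0.222 FPKM. In KO BAT H19 stood first at 109 ± 65.1 FPKM and made up 68.2% of the summed FPKM of the members, compared with 19.5% in Control BAT. In KO iWAT Grb10 and Ndn were level at 20.7 FPKM each, and Mest moved from place 7 to place 3.

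**Figure D1:**
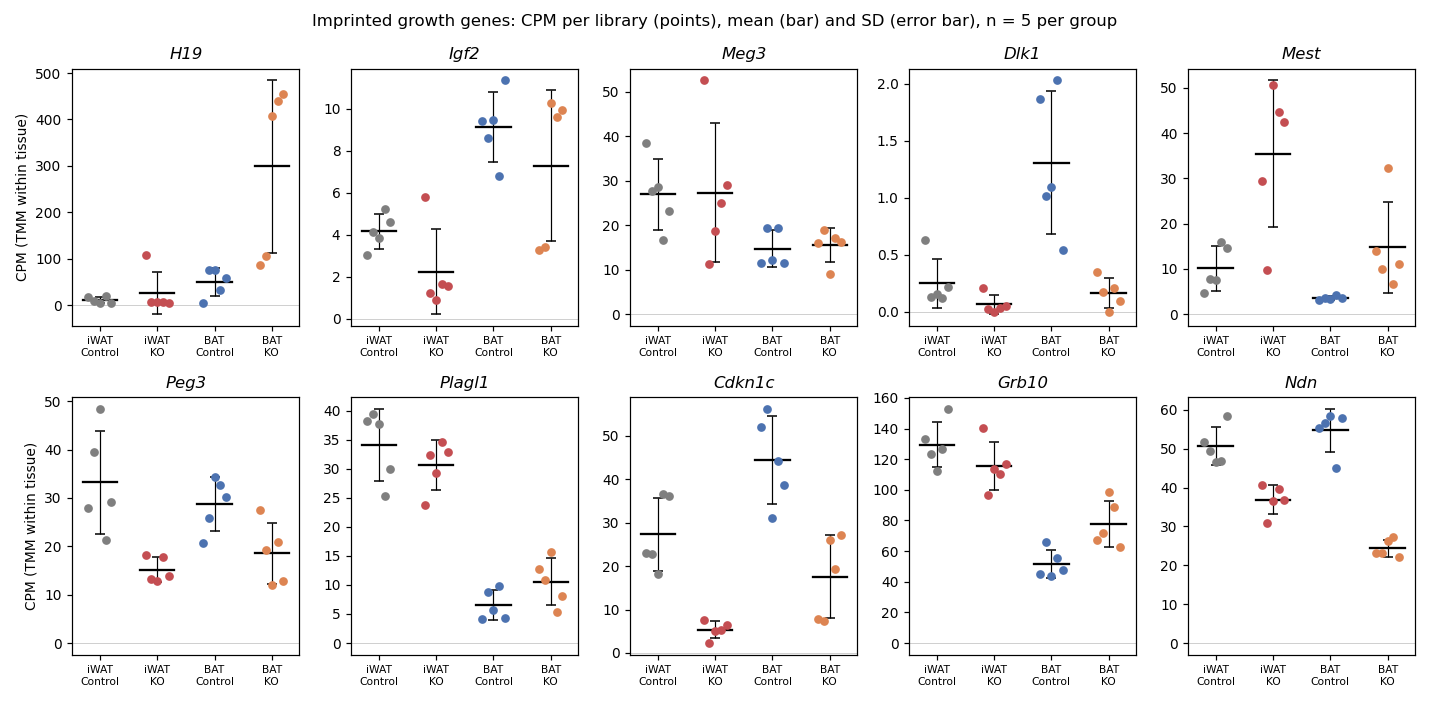
Levels of the 10 members in each library as CPM after TMM scaling within the tissue (y axis), for Control and KO iWAT and Control and KO BAT (x axis); points are libraries, bars the means and error bars the SD of 5 libraries. Cdkn1c, Peg3 and Ndn in iWAT, and H19, Dlk1, Mest, Cdkn1c and Ndn in BAT, show no overlap between KO and Control, whereas 1 KO iWAT library stands apart for H19 at 107 CPM. The share of all genes without such overlap was not counted. In edgeR 8718 of 14604 genes in iWAT and 9578 of 14344 in BAT had an unadjusted p under 0.05. Dlk1 passed the filter in BAT only through Control.

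The first question was which members moved when Igbp1 was lost from adipocytes. A gene was called when the adjusted p of edgeR's quasi-likelihood test was below 0.01 and the change at least 2-fold. In iWAT 9 members passed the filter on low counts. Mest was called higher, and Peg3 and Cdkn1c were called lower, whereas of all 14604 genes tested 11.3% were called higher and 10.7% lower. In BAT all 10 passed, but Dlk1 only through its level in Control, where it was high. Of the 9 other members, H19 and Mest were called higher and Cdkn1c and Ndn lower, against 18.2% higher and 13.3% lower among 14344 genes. Dlk1 was called lower and is left out of that count. The median log2 fold change of the members tested was -0.17 in iWAT, beside 0.01 over all genes. In BAT it was 0.07, the value of Meg3, without Dlk1 and -0.13 with it, beside -0.03 over all genes.

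**Figure D2:**
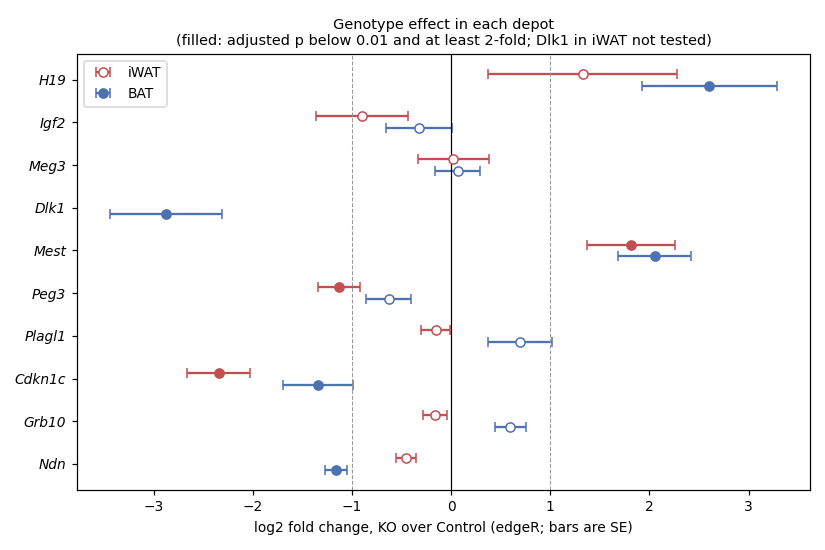
Log2 fold change of KO over Control for each member (x axis, with the SE of the edgeR fit) in iWAT and BAT; filled points were called and dashed lines mark 2-fold. Mest lies to the right and Cdkn1c to the left of the dashed lines in both tissues, and H19 has the widest error bars.

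Of the pair of H19 and Igf2, H19 had the higher level in iWAT, at 3.39 against 0.836 FPKM in Control. H19 is a noncoding RNA that is abundant in the fetus and, after birth, in skeletal muscle; the table places it on chromosome 7 at 142575530 to 142578146 (mm10, minus strand). Its values were 16.4, 8.74, 3.27, 18.5 and 4.44 CPM in Control iWAT 1 to 5 and 107, 5.48, 5.91, 5.74 and 5.01 CPM in KO iWAT 1 to 5. The 4 other KO libraries lay within the Control range, and the 1 high library was the one with muscle markers at 5810 CPM. Control iWAT 4, with a higher muscle sum of 8182 CPM, had H19 at only 18.5 CPM, the highest value of its group. The log2 fold change was 1.33 (SE 0.95, adjusted p = 0.259), and without KO iWAT 1 it was -0.89 (adjusted p = 0.131). In Control BAT H19 measured 4.30, 76.0, 74.5, 32.4 and 58.2 CPM, and in KO BAT 87.1, 105, 408, 439 and 454 CPM. Every KO value was above every Control value, with a log2 fold change of 2.60 (SE 0.68, adjusted p = 0.00538).

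H19 moved with the muscle markers in BAT. The lowest Control value, 4.30 CPM, came from the library with the lowest muscle sum, 933 CPM. The KO libraries at 87.1 and 105 CPM had muscle sums of 12600 and 14147 CPM, and those at 408 to 454 CPM had sums of 23938 to 43299 CPM. With the muscle score as a covariate the H19 estimate was -0.07 (adjusted p = 0.928), in a fit where the score varied within each group but its sums did not overlap between them. That fit still called 3255 genes for genotype. The part of muscle RNA in the H19 difference was not tested in another way. The call is also lost (adjusted p 0.0102 to 0.0154) when any of Control BAT 4 or 5 or KO BAT 3, 4 or 5 is left out, and in one fit of all 20 libraries (2.63, adjusted p = 0.0178). With the B cell score as a covariate the estimate was 4.42. The 3 genes with the profiles most like that of H19, by root mean square difference of centred log2 CPM over the 20 libraries, were Akap6, Hspb6 and Dupd1, at 0.62 to 0.71 against an SD of 2.43 for H19 itself.

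H19 is also the host of miR-675, and both mature strands are printed for this reason, 5′ to 3′ from RefSeq (GRCm38.p6, chromosome 7, minus strand) with the seed (bases 2 to 8) in capitals.
mmu-miR-675-5p: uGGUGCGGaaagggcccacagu
mmu-miR-675-3p: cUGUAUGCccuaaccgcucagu
The miRNA has a row of its own in the table, which held 0 counts in all 20 libraries, as did those of miR-335 in Mest, miR-483 in Igf2 and miR-770 in Meg3. The library kit selects polyadenylated RNA, so that the values above describe the host transcript and none describes a mature miRNA.

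**Figure D3:**
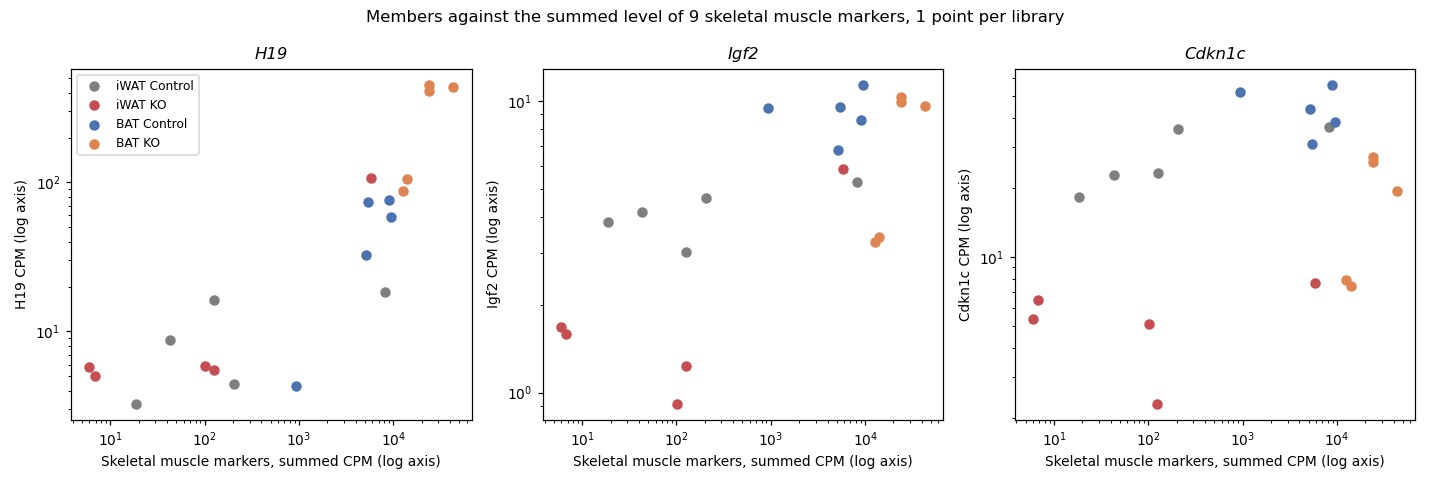
CPM of H19, Igf2 and Cdkn1c (y axes, log scale) against the summed CPM of 9 skeletal muscle markers (x axes, log scale), both scaled within the tissue, 1 point per library. The 3 libraries with the highest H19, at 408 to 454 CPM, have muscle sums of 23938 to 43299 CPM, and KO iWAT 1 lies apart from the other KO iWAT libraries on both axes for H19 and Igf2.

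Igf2, the fetal growth factor that signals through the IGF1 and insulin receptors, lies on chromosome 7 at 142650768 to 142661035 (mm10, minus strand). In Control iWAT it had 3.04, 4.16, 3.83, 5.25 and 4.63 CPM, and in KO iWAT 5.82, 1.23, 0.916, 1.68 and 1.59 CPM. KO libraries 2 to 5 lay below every Control library, and KO iWAT 1 lay above them all. The log2 fold change was -0.90 (SE 0.46, adjusted p = 0.119) and was not called. Without KO iWAT 1 it became -1.62 (adjusted p = 4.08e-04) and passed both thresholds. In BAT the values were 9.41, 8.62, 9.48, 6.80 and 11.4 CPM in Control and 3.29, 3.42, 10.3, 9.61 and 9.94 CPM in KO. KO BAT 1 and 2 were below all Control libraries and KO BAT 3 to 5 within their range, and the log2 fold change of -0.33 (SE 0.33, adjusted p = 0.406) was not called. The same pair, KO BAT 1 and 2, had the lowest H19 and the lowest muscle sums of that group.

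Taken per library, the log2 ratio of H19 to Igf2 averaged 1.91 ± 1.74 in Control BAT and 5.19 ± 0.36 in KO BAT. The groups did not overlap (-1.12 to 3.13 against 4.71 to 5.51), and the exact permutation test, two-sided, gave p = 0.00794, the smallest value that 5 against 5 libraries allow. Igf2 was not called in BAT, so that this difference mainly follows H19. The lowest ratio, -1.12, came from Control BAT 1, the library with the lowest muscle sum of BAT, 933 CPM. The part of muscle RNA in the ratio was not tested. In iWAT the ratio averaged 0.997 ± 1.14 in Control and 2.45 ± 1.05 in KO, with overlap and an exact p of 0.0794.

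The second reciprocal pair lies on chromosome 12, Dlk1 at 109452823 to 109463336 and Meg3 at 109540996 to 109571729 (mm10, plus strand). Dlk1 was near the limit of detection. In iWAT its expected counts were 28, 4, 4, 4 and 7 in Control and 7, 1, 0, 2 and 2 in KO, too few for the test across genes. In BAT it had 43, 28, 25, 60 and 14 counts in Control and 14, 7, 0, 7 and 3 counts in KO. As CPM these were 1.87, 1.02, 1.09, 2.03 and 0.539 against 0.346, 0.175, 0, 0.208 and 0.0994, so that every KO library was below every Control library. The log2 fold change was -2.88 (SE 0.56, adjusted p = 8.35e-04), for a gene that the filter admitted through its Control libraries. With the muscle score it was -2.07 and not called (adjusted p = 0.0467). KO BAT 3, with a count of 0, is compatible with up to 3 counts, a limit that covers counting error only.

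Meg3, a noncoding RNA of the maternal chromosome, had 38.4, 27.8, 28.5, 16.8 and 23.1 CPM in Control iWAT and 52.6, 11.3, 18.7, 25.1 and 29.1 CPM in KO iWAT. The groups were interleaved, with KO iWAT 1 again the highest, and the log2 fold change was 0.02 (SE 0.36, adjusted p = 0.963). In BAT its values ran from 11.4 to 19.4 CPM in Control and from 8.99 to 18.998 CPM in KO, and the log2 fold change was 0.07 (SE 0.23, adjusted p = 0.807). The sign of both estimates varied between settings. The log2 ratio of Dlk1 to Meg3 averaged -3.53 ± 0.70 in Control BAT and -6.35 ± 0.74 in KO BAT without overlap (exact permutation test, p = 0.00794). With Meg3 at 0.07, this ratio restates the Dlk1 difference, for a gene that the filter admitted through Control. It is no separate result about the pair. It averaged -6.57 ± 0.55 and -7.69 ± 0.46 in Control and KO iWAT (exact p = 0.0238), where the Dlk1 counts above limit the ratio. The size of the Dlk1 to Meg3 difference varied with the prior count and the unit, from -3.39 to -1.52 in BAT and from -1.85 to -0.37 in iWAT.

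**Figure D4:**
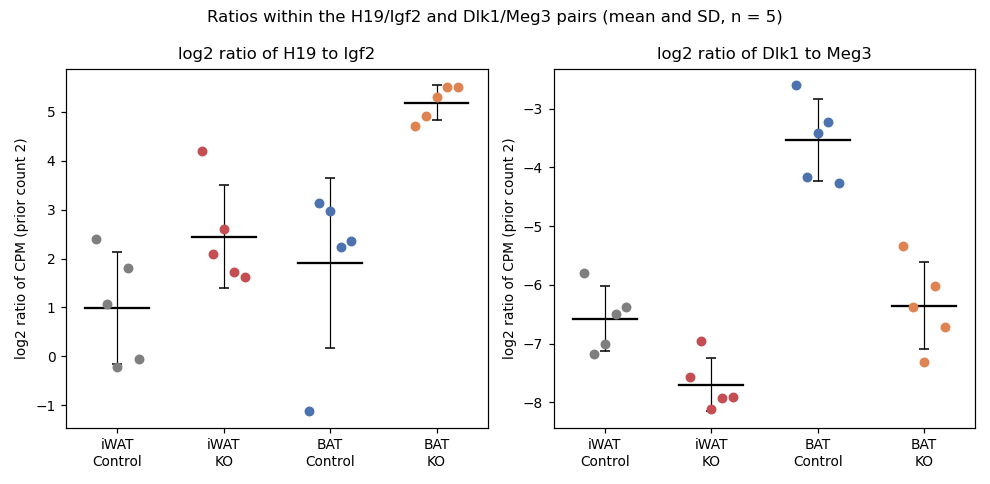
Log2 ratio of CPM (y axis, prior count of 2) of H19 to Igf2 and of Dlk1 to Meg3 per library, for Control and KO iWAT and BAT (x axis), with the mean and SD of 5 libraries. In BAT the KO libraries lie above all Control libraries for H19 to Igf2 and below all of them for Dlk1 to Meg3. Igf2 and Meg3 were not called in BAT, so that the differences mainly follow H19 and Dlk1. The part of muscle RNA in the H19 ratio was not tested, and Dlk1 passed the filter through Control.

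Mest encodes a protein of the alpha/beta hydrolase fold in the endoplasmic reticulum and is known as a marker of fat expansion; it lies on chromosome 6 at 30733506 to 30748466 (mm10, plus strand). It rose in both tissues. Control iWAT had 4.57, 7.72, 7.62, 15.9 and 14.7 CPM and KO iWAT 29.4, 9.83, 50.6, 44.8 and 42.5 CPM. In iWAT 4 of 5 KO libraries exceeded every Control library, and KO iWAT 2 fell within the Control range. The log2 fold change was 1.81 (SE 0.44, adjusted p = 0.00504). Leaving out any of Control iWAT 1, 2 or 3 or KO iWAT 3, 4 or 5 put the adjusted p between 0.0118 and 0.0169, with estimates of 1.56 to 1.74. The call in iWAT was also lost with the B cell score (adjusted p = 0.0150). In BAT Control had 3.12, 3.57, 3.23, 4.23 and 3.62 CPM and KO 14.01, 10.1, 32.2, 6.69 and 11.1 CPM. All KO libraries were above all Control libraries, with a log2 fold change of 2.05 (SE 0.36, adjusted p = 4.03e-04). With the muscle score, which did not overlap between the groups, it was 2.02 and not called (adjusted p = 0.0137). KO libraries spread 67.9% around their mean (coefficient of variation), compared with 12.2% in Control. An intron of Mest holds miR-335, and both mature strands are printed because this host transcript was called in both tissues, with seeds in capitals (RefSeq, GRCm38.p6, chromosome 6, plus strand).
mmu-miR-335-5p: uCAAGAGCaauaacgaaaaaugu
mmu-miR-335-3p: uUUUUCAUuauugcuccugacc
The genes with profiles nearest to that of Mest were Ddx60, Herc6 and Gm4788, with root mean square differences of 0.54 to 0.55 against an SD of 1.23 for Mest.

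Cdkn1c encodes p57, an inhibitor of cyclin-dependent kinases that holds cells out of the cell cycle, and lies on chromosome 7 at 143458339 to 143461050 (mm10, minus strand). It fell in both tissues. Control iWAT had 23.0, 22.8, 18.2, 36.6 and 36.1 CPM, and KO iWAT 7.68, 2.29, 5.08, 5.36 and 6.46 CPM. The lowest Control library was well above the highest KO library, and the log2 fold change was -2.35 (SE 0.31, adjusted p = 9.53e-05). In BAT the values were 52.1, 56.1, 31.03, 44.1 and 38.8 CPM in Control and 7.90, 7.45, 25.97, 19.4 and 27.2 CPM in KO. The groups did not overlap, but KO BAT 1 and 2, the libraries with the lowest muscle sums of KO BAT, were well below KO BAT 3 to 5. The log2 fold change was -1.34 (SE 0.36, adjusted p = 0.00582), and the adjusted p lay between 0.0106 and 0.0150 when Control BAT 1, 2 or 4 or KO BAT 4 was left out. The call was also lost with library size in place of TMM (-1.11, adjusted p = 0.0110), the replicate block (-1.50, adjusted p = 0.0135), the muscle score (-1.58, adjusted p = 0.0368) and the B cell score (-1.28, adjusted p = 0.0393). Its nearest profiles were those of Nat1, Pkd2l2 and Vegfb (0.43 to 0.49, SD of Cdkn1c 1.36). Of the other Cip/Kip inhibitors, Cdkn1a (p21) rose in iWAT from 81.3 ± 28.9 to 240.4 ± 60.4 CPM (log2 fold change 1.56, adjusted p = 4.35e-04) and had an estimate of -0.23 in BAT (adjusted p = 0.503). The interaction was called for Cdkn1a (-1.76, adjusted p = 0.00922). Cdkn1b (p27) had estimates of 0.08 and -0.02 and was not called.

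Grb10, an adaptor that binds the insulin and IGF1 receptors, lies on chromosome 11 at 11930499 to 12037420 (mm10, minus strand). In iWAT it had 133, 123, 112, 127 and 153 CPM in Control and 140.3, 96.9, 113, 110.4 and 117 CPM in KO, with overlapping groups and a log2 fold change of -0.17 (SE 0.12, adjusted p = 0.260). In BAT the values were 45.1, 65.8, 43.4, 55.6 and 47.4 CPM in Control and 67.2, 71.6, 98.5, 88.9 and 62.7 CPM in KO. Only Control BAT 2 reached into the KO range. The log2 fold change of 0.60 (SE 0.16) had an adjusted p of 0.00580 but stayed under 2-fold, so that Grb10 was not called. The interaction estimate was 0.79 (SE 0.20, adjusted p = 0.0150), also short of the threshold. The related adaptors Grb7 and Grb14 were not called in either tissue.

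Plagl1 (Zac1) encodes a zinc finger factor that is known to regulate other imprinted genes; it lies on chromosome 10 at 13090788 to 13131695 (mm10, plus strand). In iWAT its 5 Control values ran from 25.3 to 39.4 CPM and its KO values from 23.8 to 34.7 CPM, with a log2 fold change of -0.16 (SE 0.15, adjusted p = 0.390). In BAT they ran from 4.12 to 9.78 CPM in Control and from 5.29 to 15.7 CPM in KO (0.69, SE 0.32, adjusted p = 0.0802). Neither difference was called, and the groups overlapped in both tissues. Within the same family, Plag1 fell in BAT from 2.53 ± 0.733 to 0.534 ± 0.234 CPM (log2 fold change -2.22, adjusted p = 9.96e-05) and was not called in iWAT. Plagl2 had an iWAT estimate of 0.96 (adjusted p = 1.76e-04) and a BAT estimate of 0.80 (adjusted p = 0.00112), both under 2-fold and without overlap of the groups.

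Peg3, a zinc finger protein expressed from the paternal chromosome, lies on chromosome 7 at 6705960 to 6730419 (mm10, minus strand). Control iWAT had 27.97, 39.5, 48.4, 21.4 and 29.2 CPM and KO iWAT 18.1, 13.3, 12.7, 17.9 and 13.9 CPM. All KO libraries were below all Control libraries, with a log2 fold change of -1.13 (SE 0.21, adjusted p = 9.57e-04). The size is close to the 2-fold limit: the call was lost with library totals in place of TMM scaling (-0.999, marginally under 2-fold) and with limma on FPKM (-0.72 and -0.93 at pseudocounts of 1 and 0.1). In BAT the values were 20.6, 25.8, 34.4, 32.6 and 30.1 CPM in Control and 27.6, 19.1, 12.0, 20.9 and 12.9 CPM in KO. KO BAT 1 and 4 lay inside the Control range, and the log2 fold change of -0.63 (SE 0.23, adjusted p = 0.0291) was not called. Its nearest profiles were those of Fitm2, Katnal2 and Syne2 (0.28 to 0.30, SD of Peg3 0.62).

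Ndn encodes necdin, a MAGE protein that restrains proliferation, and is a gene without introns on chromosome 7 at 62348277 to 62349927 (mm10, plus strand). It was the steadiest member, with coefficients of variation of 9.07% to 10.3% in the 4 groups. Control iWAT had 51.6, 49.5, 46.6, 47.0 and 58.6 CPM and KO iWAT 40.8, 30.9, 36.6, 39.5 and 36.7 CPM. The groups did not overlap, and the log2 fold change of -0.46 (SE 0.10, adjusted p = 0.00261) was below 2-fold and not called. In BAT the values were 55.4, 56.6, 58.4, 45.1 and 58.0 CPM in Control and 23.2, 23.1, 26.3, 27.3 and 22.3 CPM in KO. Every KO library was below every Control library, with a log2 fold change of -1.16 (SE 0.11, adjusted p = 2.40e-06). The change was under 2-fold, and the call lost, with library size in place of TMM (-0.90) and with limma on FPKM (-0.85 and -0.89 at pseudocounts of 1 and 0.1). The nearest profiles were Ppm1f, Osbpl2 and Emc8 (0.17 to 0.18, SD of Ndn 0.48). No other MAGE gene tested was called in either tissue. Maged1 had an iWAT estimate of -0.71 (adjusted p = 0.00619) and a BAT estimate of -0.74 (adjusted p = 0.00217). Maged2 (0.47 and 0.61, adjusted p = 0.00461 and 0.00139) and Mageh1 (0.503 and 0.68, adjusted p = 0.00658 and 0.00337) had estimates above 0 in both tissues.

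The promoter windows of Dlk1, Ndn and Peg3 are shown because these members were lower in KO without overlap of the groups in at least 1 tissue and have a single annotated start each. A window spans 250 bases before to 50 bases after the start (RefSeq, GRCm38.p6), is written 5′ to 3′ along the gene, and has every CpG in capitals.
Dlk1, chr12:109452573-109452872, plus strand: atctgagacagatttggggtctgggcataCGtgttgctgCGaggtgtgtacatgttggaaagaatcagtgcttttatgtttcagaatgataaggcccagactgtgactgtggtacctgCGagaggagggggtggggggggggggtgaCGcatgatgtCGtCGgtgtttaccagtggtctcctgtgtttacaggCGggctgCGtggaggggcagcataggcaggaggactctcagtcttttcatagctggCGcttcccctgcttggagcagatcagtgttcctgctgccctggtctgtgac
Ndn, chr7:62348027-62348326, plus strand: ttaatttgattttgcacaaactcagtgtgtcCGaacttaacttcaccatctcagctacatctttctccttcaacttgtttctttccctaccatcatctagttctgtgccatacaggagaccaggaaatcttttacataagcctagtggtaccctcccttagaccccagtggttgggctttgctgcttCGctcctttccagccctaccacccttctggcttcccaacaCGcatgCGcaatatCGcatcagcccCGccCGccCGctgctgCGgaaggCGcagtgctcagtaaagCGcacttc
Peg3, chr7:6730370-6730669, minus strand: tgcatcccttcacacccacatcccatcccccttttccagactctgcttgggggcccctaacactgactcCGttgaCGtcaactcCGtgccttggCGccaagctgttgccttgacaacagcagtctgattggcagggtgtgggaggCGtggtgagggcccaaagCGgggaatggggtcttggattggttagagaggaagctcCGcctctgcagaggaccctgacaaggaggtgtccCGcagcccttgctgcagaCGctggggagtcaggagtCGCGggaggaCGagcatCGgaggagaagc
These windows hold 9, 11 and 13 CpG, against a median of 7 over 32851 promoter windows of the same length, and 45.8%, 41.4% and 37.9% of all windows hold at least as many. The letters GGGGCCCC, a palindrome and so the same on both strands, occur once in the Peg3 window and in 1.08% of all windows. They were not found in the other 14 windows of the 8 members with an entry, Igf2, Meg3, Dlk1, Mest, Peg3, Plagl1, Grb10 and Ndn; H19 and Cdkn1c were not matched. Among all member windows the CpG number ran from 1 at 1 start of Meg3 to 45 at 1 start of Grb10. No methylation was measured, and the match is a description of letters.

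The 2 depots were compared within each genotype, with CPM scaled within the genotype. In Control, Igf2 was higher in BAT than in iWAT (3.75 ± 0.716 to 8.92 ± 1.62 CPM, log2 fold change 1.25, adjusted p = 2.80e-04). That call was lost with limma on FPKM (0.58 and 0.99 at pseudocounts of 1 and 0.1), in one fit of all 20 libraries (1.28, adjusted p = 0.0153) and with the muscle score (1.03, adjusted p = 0.0165). Plagl1 was lower in BAT (30.6 ± 5.81 to 6.34 ± 2.52 CPM, -2.27, adjusted p = 4.16e-05), as were Mest (-1.38, adjusted p = 0.00331) and Grb10 (-1.21, adjusted p = 2.80e-05). This 1 higher and these 3 lower members stood against 7.22% higher and 14.7% lower of 14260 genes. Dlk1, which passed the filter through BAT with 4 to 28 counts in Control iWAT, was also called higher in BAT (2.42, adjusted p = 0.00260), with overlapping groups, but not with the muscle score (adjusted p = 0.0135), and is left out of that count. H19 had an estimate of 2.37 with an adjusted p of 0.0125 and was not called, whereas without Control BAT 1 it was (2.67, adjusted p = 0.00154). With the muscle score the estimate was 0.77 (adjusted p = 0.631). Without Control BAT 3 the adjusted p of Mest was 0.0102, and its call was also lost with limma at a pseudocount of 1 (-0.92), in one fit (adjusted p = 0.0141) and with the B cell score (adjusted p = 0.0210). In KO, Cdkn1c was higher in BAT (5.30 ± 2.01 to 20.4 ± 11.02 CPM, 1.94, adjusted p = 0.00525) and Plagl1 lower (-1.31, adjusted p = 0.00206), against 8.4% higher and 3.09% lower of 14703 genes. H19 and Igf2 had estimates of 3.76 and 1.94 in KO with adjusted p values of 0.0159 and 0.0176. Without KO iWAT 1 these were 5.98 (adjusted p = 4.88e-05) and 2.65 (adjusted p = 8.09e-04), and with the muscle score they were 0.94 (adjusted p = 0.590) and 0.38 (adjusted p = 0.817). Neither call in KO held with the muscle score, at -0.80 for Plagl1 (adjusted p = 0.307) and 1.51 for Cdkn1c (adjusted p = 0.349), or with the B cell score, at -1.44 (adjusted p = 0.0134) and 2.05 (adjusted p = 0.0390). Those 2 fits called only 0.238% and 3.38% of all genes, so that most calls of other genes were lost as well. The call of Cdkn1c was lost when KO iWAT 3, 4 or 5 or KO BAT 3, 4 or 5 was left out (adjusted p 0.0120 to 0.0152), and without both KO iWAT 1 and 2 (1.86, adjusted p = 0.0106), a setting chosen after seeing the data.

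Whether the effect of the knockout differed between the depots was tested as the interaction of genotype and tissue over all 20 libraries, where 4.86% of 15230 genes were called at an adjusted p below 0.01. Of the 10 members only Ndn was called, with a KO effect lower in BAT than in iWAT by -0.68 on the log2 scale (SE 0.14, adjusted p = 0.00396). For Mest and Cdkn1c, called in both tissues, the interaction estimates were 0.26 and 1.03 (adjusted p = 0.792 and 0.164). Peg3 was called in iWAT and not in BAT, and its interaction was not called (0.54, adjusted p = 0.280). Dlk1, called in BAT and too scarce for the test within iWAT, had an interaction estimate of -0.86 (SE 1.11, adjusted p = 0.631). For H19 the estimate was 1.31 with an SE of 1.23 (adjusted p = 0.494), and it ranged from 0.99 without Control iWAT 4 to 3.63 without KO iWAT 1 (adjusted p = 0.650 and 0.0118), with 0.44 under the B cell score (adjusted p = 0.886). Leaving out each library in turn gave -0.74 to -0.53 for Ndn with adjusted p values of 0.00138 to 0.0236, and the call was lost without Control iWAT 1, without KO iWAT 1, 3, 4 or 5 and without KO BAT 1, 2, 3 or 5. It was also lost in 8 of 12 other settings, among them library size in place of TMM (-0.56, adjusted p = 0.0106), at least 10 counts in every library (-0.54, adjusted p = 0.0159) and limma on FPKM (-0.54 and -0.57, adjusted p = 0.0144 and 0.0128 at pseudocounts of 1 and 0.1). In these 4 settings Grb10 was called instead, with a KO effect higher in BAT by 0.82 to 0.93.

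Beside the members, 36 other imprinted genes were listed, of which 29 were tested in each tissue. In iWAT 3, Ascl2 included, rose and 5 fell, beside 11.3% higher and 10.7% lower among all genes. Asb4, a subunit of a ubiquitin ligase, went from 1.64 ± 0.675 to 11.3 ± 3.67 CPM (log2 fold change 2.78, adjusted p = 4.81e-05), and Peg10 from 4.06 ± 1.10 to 14.6 ± 4.49 CPM (1.85, adjusted p = 1.84e-04). Ascl2 was the other that rose (2.45, adjusted p = 3.62e-04). It did not pass the filter among the Control libraries, so that its KO libraries, where it was high, admitted it to the test. Nnat, which encodes neuronatin of the endoplasmic reticulum membrane, fell from 755 ± 144 to 76.4 ± 43.9 CPM (-3.31, adjusted p = 6.51e-05), and Blcap, the gene in which Nnat lies, fell too (-1.47, adjusted p = 3.75e-06). Ppp1r9a, Trappc9 and Nap1l5 fell by 1.03 to 1.44 on the log2 scale. The median of the 29 was -0.02, next to 0.01 over all genes tested.

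In BAT 4 of the 29 rose and 7 fell, beside 18.2% and 13.3% of all genes, with a median of 0.03. Slc38a4, an amino acid transporter, rose from 8.32 ± 4.79 to 53.9 ± 24.2 CPM (2.69, adjusted p = 2.65e-04; interaction 2.73, adjusted p = 0.0214), and Asb4 (2.15), Peg10 (1.85) and Zdbf2 (1.23) rose as well. Gnas, which encodes the stimulatory G protein subunit behind adrenergic signaling, fell from 2277 ± 351 to 611 ± 149 CPM (-1.90, adjusted p = 4.35e-06). In iWAT it went from 581 ± 31.2 to 375 ± 44.5 CPM, under 2-fold, and the interaction was called (-1.24, adjusted p = 0.00117). Nnat, Blcap, Ppp1r9a, Zrsr1, Trappc9 and Nap1l5 were the others that fell in BAT.

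**Figure D5:**
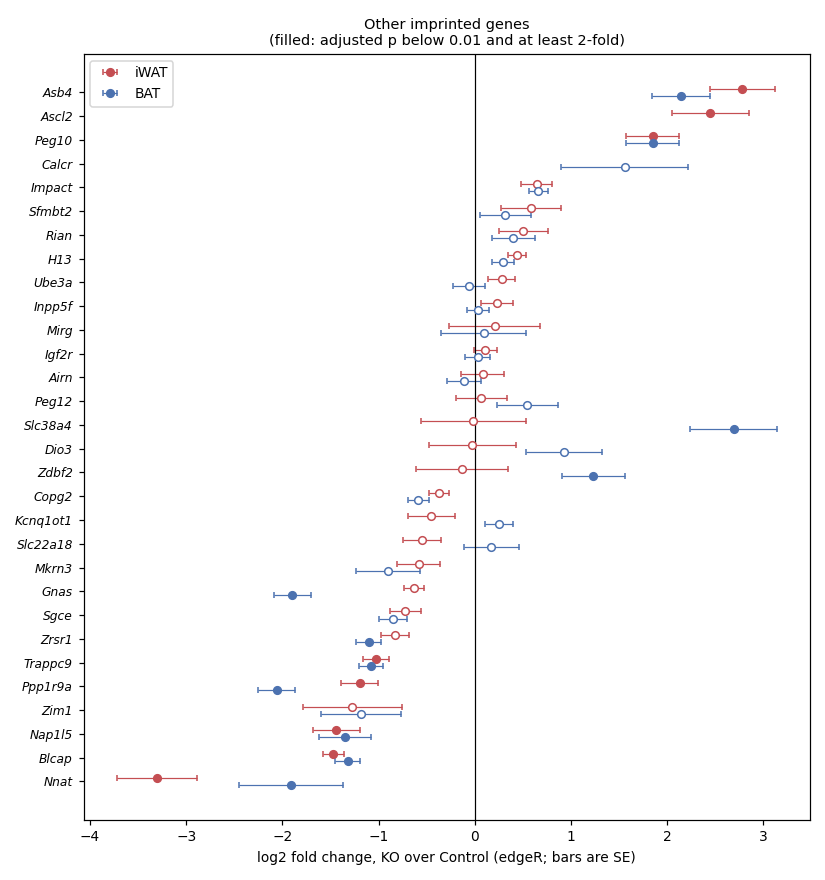
Log2 fold change of KO over Control (x axis, with SE) for the other imprinted genes tested in iWAT, BAT or both; filled points were called. Asb4 and Peg10 lie on the right and Nnat, Blcap, Nap1l5, Ppp1r9a and Trappc9 on the left in both tissues, whereas Slc38a4 at 2.69 and Gnas at -1.90 were called in BAT and not in iWAT.

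In the IGF axis, 18 of 22 listed genes were tested in iWAT, where none was called higher and Irs1 (-1.46), Igfbp3 (-1.91), Igfals (-1.49) and Stc2 (-1.86) were called lower, beside 11.3% higher and 10.7% lower among all genes. In either direction edgeR gave an unadjusted p under 0.05 for 11 of the 18 and for 8718 of all 14604 genes. Irs1 is a docking protein of the insulin and IGF1 receptors and Igfbp3 a binding protein that carries IGFs. In BAT 17 were tested and none was called lower, beside 13.3% of all genes. In edgeR 10 of them had an unadjusted p under 0.05, as did 9578 of all 14344 genes. The 2 called higher there, beside 18.2% of all genes, were Igf1, from 37.6 ± 11.9 to 75.5 ± 12.5 CPM (log2 fold change 1.01, adjusted p = 0.00158), and Igf2bp2 (1.24, adjusted p = 1.80e-04), which binds the Igf2 transcript. No receptor of Igf2 reached a 2-fold change. The insulin receptor gene Insr was lower in KO without overlap of the groups, at 214 ± 23.4 against 111 ± 18.5 CPM in iWAT (-0.95, adjusted p = 1.30e-04) and 177 ± 12.9 against 104 ± 14.01 CPM in BAT (-0.76, adjusted p = 1.23e-04). Igf1r had estimates of 0.35 and 0.22 in iWAT and BAT, and the clearance receptor Igf2r had 0.11 and 0.03. Of 19 genes of this list tested for the interaction, Igf1 (1.501), Igfbp4 (1.73), Igfbp5 (1.74) and Igfbp7 (0.81) were called, beside 4.86% of all 15230 genes.

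Dlk1 is a relative of the Notch ligands, and 13 Notch pathway genes were listed, of which iWAT allowed a test of 11 and BAT of 12. None was called higher, beside 11.3% of all genes in iWAT and 18.2% in BAT. In either direction edgeR gave an unadjusted p under 0.05 for 9 of 11 in iWAT and, without Dlk1, for 10 of 11 in BAT, next to 8718 of 14604 and 9578 of 14344 genes in all. Estimates above 0 were 2 in iWAT and 1 in BAT, where Notch2 was higher in KO without overlap of the groups (0.84, adjusted p = 2.34e-04), under 2-fold. Dll4, Jag1, Jag2, Notch4 and Heyl fell in iWAT, where 10.7% of all genes were called lower. Dll4, Jag2, Notch1, Notch3, Notch4 and Heyl fell in BAT, beside Dlk1 itself, where the share of all genes was 13.3%. Dll4, a ligand of vascular cells, went from 8.78 ± 1.12 to 1.82 ± 0.726 CPM in iWAT (-2.27) and from 24.2 ± 9.44 to 4.06 ± 1.09 CPM in BAT (-2.58). Endothelial markers moved with these genes, summing to 427 to 555 CPM in Control iWAT and 243 to 294 in KO iWAT, and to 722 to 1031 and 280.1 to 365 CPM in BAT, and their part in the Notch pathway result was not tested. Of the genes known with Mest from fat expansion, Bmp3 rose in BAT (1.63 ± 0.648 to 4.63 ± 1.13 CPM, 1.501, adjusted p = 0.00127), and Sfrp5 and Cav1 were not called in either tissue. In iWAT the estimate of Bmp3 was below 0 and not called, and its interaction was not called either (2.02, adjusted p = 0.0169).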

How the data were processed

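Gene expression of iWAT and BAT was measured by RNA sequencing of stranded mRNA libraries (paired reads of 150 bp). The submitters' processing notes name bcl2fastq 2, STAR 2.5.3a and mm10; the counting tool, its strand setting and the annotation release are not given in the sources used here. The authors deposited expected counts per gene, not normalized, of which 76.6% of the nonzero values are whole, and FPKM values, which divide by transcript length and library total.

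Counts were rounded and fitted with edgeR 4.0.16 in R 4.3.3 (filterByExpr, TMM, quasi-likelihood test, Benjamini-Hochberg adjustment over all genes tested) within each tissue or genotype, and over all 20 libraries for the interaction. SE is the estimate divided by the square root of F. CPM for KO against Control and the sums of marker genes were scaled within the tissue. The marker scores, each the mean log2 CPM of its genes, and the ratios were scaled over the 20 libraries together. Log2 CPM used a prior count of 2. Ratios were compared by exact permutation tests. Alternatives used DESeq2 1.42.0, limma 3.58.1 on log2 FPKM, other scalings, filters and thresholds, marker scores as covariates, a replicate block and each library left out.

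The members and gene lists were chosen with earlier results of these data known. Named genes are the members, Igbp1, at most 6 called genes of a list with the smallest adjusted p and the 3 nearest profiles of called members; other names from these lists were chosen after their values were seen. The pipeline was tested on simulated counts with a common dispersion per comparison, where a gene counted as recovered by its adjusted p alone. Of genes changed 4-fold, 97% were recovered in a simulated iWAT comparison of 14951 genes and 100% in BAT (14502 genes). Of those changed 2-fold, 19% and 69% were recovered. In the interaction (15239 genes) the shares were 75% for 4-fold and 6% for 2-fold changes. The 2-fold minimum of a call was not applied, so the 2-fold shares in iWAT and BAT are upper limits for the calling rule. The shares need not hold for members with few counts or a wide spread, such as Dlk1 and H19. No 2 libraries of a group agreed within sampling noise. Same-numbered libraries of different groups did not deviate together, with correlations of -0.452 to 0.244, so the numbers were not treated as pairs.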

Additional observations from a re-analysis of the deposited data

Results flagged for a closer look

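Values of the members and Igbp1 were checked in 44 sets of 5 libraries for a highest or lowest library whose gap to its neighbour exceeded 0.71 of the range, which chance alone gives in about 1 of 20 sets, and 6 were found. In KO iWAT 1, H19 stood at 107 CPM, Igf2 at 5.82 CPM and Dlk1 at 0.213 CPM, each the highest of its group, and this is the library with skeletal muscle markers at 5810 CPM. Control iWAT 4, with more muscle signal (8182 CPM), had H19 at 18.5, Igf2 at 5.25 and Dlk1 at 0.124 CPM, the last being the lowest of its group. Dlk1 was at 0.631 CPM in Control iWAT 1, a library with B cell and epithelial markers. Mest was at 32.2 CPM in KO BAT 3. Ndn was lowest at 45.1 CPM in Control BAT 4.

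The effect of the knockout on Ndn differed between the depots, by -0.68 on the log2 scale (BAT minus iWAT, interaction test in edgeR, adjusted p = 0.00396), with every KO library below every Control library in both tissues. This call was lost in 8 of 12 other settings and without any 1 of 9 of the 20 libraries, with estimates between -0.74 and -0.53 throughout.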

How the results depend on the processing

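In KO against Control, 3 members were called in iWAT and 5, Dlk1 included, in BAT. The BAT count was 3 without TMM factors (31.5% of all genes called) and with limma on FPKM at pseudocounts of 1 and 0.1 (23% and 29.9%), where Dlk1 was not tested. It was 1, Ndn, with the muscle score as a covariate (22.7%). With that score Mest (2.02, adjusted p = 0.0137), Dlk1 (-2.07, adjusted p = 0.0467) and Cdkn1c (-1.58, adjusted p = 0.0368) kept their direction. Library size in place of TMM moved the median of all genes to 0.13 in iWAT and 0.23 in BAT, and Ndn (-0.90) and Cdkn1c (-1.11) were then not called. The filter of at least 10 counts in every library removed Dlk1. Mest in iWAT was not called with the B cell score (1.81, adjusted p = 0.0150), nor was Cdkn1c in BAT. H19 in BAT was not called in one fit of all 20 libraries (2.63, adjusted p = 0.0178), and limma on FPKM put Ndn in BAT under 2-fold (-0.85 and -0.89). Between the depots, 5 members, Dlk1 included, were called in Control. The count was 2 with limma at a pseudocount of 1 (14.2% of all genes called) and 3 at 0.1 (20.2%), where Dlk1 was not tested. It was also 3 in one fit of all 20 libraries, Dlk1 included (22.7%), and with the muscle score (17.8%). In KO 2 were called, and the count was 4 with DESeq2, at an adjusted p below 0.05 and in one fit. It was 0 with the muscle score or the B cell score, fits that called only 0.238% and 3.38% of all 14703 genes. In KO the muscle scores of the depots did not overlap, whereas the B cell scores did. The interaction called 1 member, Ndn, and Ndn with Grb10 with DESeq2, upper quartiles or an adjusted p below 0.05 (8.46%, 5.08% and 15.1% of all genes called). Grb10 was called in place of Ndn without TMM factors, with at least 10 counts in every library and with limma at either pseudocount (4.13% to 6.88% of all genes called). The count was 0 without a filter, with the B cell score, with a replicate block, and without 4 iWAT libraries (Control 1 and 4, KO 1 and 2), a setting chosen after seeing the data. The fits with a count of 0 called 2.09% to 3.51% of all genes. The causes were not tested. Without these 4 libraries Igf2 was called lower in KO iWAT (-1.65, adjusted p = 0.00156) beside Mest, Peg3 and Cdkn1c.

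Leaving out each library in turn gave 2 to 4 members called in iWAT, 3 to 5 in BAT, 4 to 6 and 1 to 4 between the depots in Control and KO, and 0 to 2 in the interaction. Of all genes tested, the same fits called 19.5% to 23.5% in iWAT and 29.2% to 31.4% in BAT. Between the depots they called 19.5% to 22.5% in Control and 8.55% to 13.1% in KO, and in the interaction 3.07% to 6.63%. The difference in log2 ratio of H19 to Igf2 ranged from 1.02 to 1.80 in iWAT (exact p = 0.0397 without Control iWAT 1) and from 2.51 to 3.58 in BAT, and that of Dlk1 to Meg3 from -1.31 to -0.93 and from -3.07 to -2.58. With the replicate block as same-numbered differences the ratios were 3.27 in BAT for H19 to Igf2, and -1.12 in iWAT and -2.82 in BAT for Dlk1 to Meg3, with exact sign-flip p values of 0.0625, 0.125 and 0.0625, of which 0.0625 is the smallest that 5 pairs allow. In iWAT the Dlk1 to Meg3 difference was -0.37 on FPKM (exact p = 0.254) and -1.13 without the 4 libraries (exact p = 0.1, the smallest allowed there). In BAT it was -1.52 on FPKM and -3.39 with a prior count of 0.5, and in iWAT -1.85 with that prior count, all at an exact p of 0.00794. The replicate block also cost the calls of Cdkn1c in BAT (-1.50, adjusted p = 0.0135) and of Ndn in the interaction (-0.68, adjusted p = 0.0104), and changed no other call of a member.

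Apart from H19 in BAT, the members whose estimate changed sign were not called in that comparison. Meg3 in iWAT was -0.00198 with DESeq2, -0.0671 with upper quartiles, -0.10 with the replicate block and -0.19 without the 4 libraries, and -0.35 to 0.22 over single libraries left out; in BAT it was -0.10 with the muscle score and -0.0202 to 0.21 over single libraries. H19 in iWAT was -0.0512 without the 4 libraries and -0.89 to 1.65 over single libraries, and in BAT, where it was called, its estimate was -0.0679 with the muscle score. Peg3 between depots in Control was 0.48 with the muscle score and -0.23 to 0.0779 over single libraries. Interaction estimates of Mest (-0.12 with limma at a pseudocount of 1, -0.11 to 0.57), Meg3 (-0.0543 with the B cell score, -0.0328 to 0.56) and Dlk1 (-1.48 to 0.19) also crossed 0. Depth limits Dlk1, with at most 60 counts in a library.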

Other observations

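Nctc1, a noncoding transcript of the H19 and Igf2 region that was chosen after its values were seen, had medians of 0 and 1 expected counts in Control and KO iWAT, with highest values of 263 in Control and 161 in KO. In BAT it had 27 to 282.5 counts in Control and 438 to 1296 counts in KO. The antisense row Igf2os held at most 4 counts in any library, and that of Peg3, Peg3os, held 0 in all 20.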
